A study of Mus musculus with 8 samples.

Results

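The regions described here are 729 stretches of 1000 bp (tiles) of the mouse genome in which the deposited dispersion of DNA methylation was high in muscle stem cells of old mice and low in those of young mice. They were chosen on these values: each lies on chromosomes 1 to 19, holds at least 10 measured CpG positions, and has a mean dispersion (phi) of 0.1 or more in old and under 0.06 in young cells. They make up 0.0607% of the 1201119 tiles with at least 10 positions. The reverse case, 0.1 or more in young and under 0.06 in old cells, held 246 tiles, or 0.0205%. The first kind is called old-only and the second young-only below. Because the dispersion of both ages chose the tiles, their dispersion, level and p-values are given as a description and no test was run on them.

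The assay was bisulfite sequencing of the whole genome, in which unmethylated cytosines are read as thymines, in quiescent muscle stem cells, the resting cells beside the muscle fibre that repair it after injury. The old mice were 22 months and the young mice 4 months of age, all C57BL/6 males with no other treatment given in the labels, with 4 libraries per age and 1 animal per library. Cells were sorted from limb muscle as CD45-, CD31-, Sca1- and VCAM+ and used directly, and the labels state 115 to 200 M reads per library. The deposited table holds, for each of 33108039 cytosine positions, a smoothed level and a dispersion for the old and for the young group. Single animals and read counts are not part of it, so levels stand without an SD and the depth at each position is unknown.

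In vertebrates a methyl group is added to cytosines followed by guanine (CpG), and most such sites carry it in most cells, while CpG-rich gene starts are usually free of it. A level between the extremes in a bulk library can come from a mix of cells, of the parental alleles or of molecules within them, and these cannot be told apart here. In count models of bisulfite reads a dispersion describes how far replicate libraries scatter around their group's level beyond the sampling of reads. The sources used here do not say how the deposited phi was computed, so it is reported below as the authors' value, without a unit.

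The sorted cells were checked at the promoter windows of 11 of 23 marker genes, those with a window of at least 2 measured positions; 0 of the 6 fibro-adipogenic and tendon markers had one. The windows of the muscle stem cell genes Pax7, Myf5, Cdh15 and Calcr were methylated at 3.11% to 11.5% in old and 3.42% to 10.3% in young cells. Those of the blood genes Ptprc, Cd3e, Cd79a and Laptm5 stood at 67.2% to 86.5% in old and 61.9% to 80.2% in young cells. Of the endothelial genes, Tie1 and Emcn stood at 62.5% and 65.1% in old and at 59.1% and 69.2% in young cells, whereas Kdr, a receptor for vascular endothelial growth factor, stood at 3.10% in old and 3.24% in young cells. Methylation of a window does not measure expression. None of these 11 genes holds an old-only tile.

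The sequences of 4 promoter windows, from 250 bases before to 50 bases after an annotated start, are printed to show high positions of old-only tiles. They come from RefSeq on build GRCm38.p6, all on the plus strand, and capitals mark the CpG of each position with a dispersion of 0.1 or more in old cells. The window of Cyp11a1, the enzyme of the first step of steroid hormone synthesis, is chr9:58014702-58015001. Its start lies within the gene's span (chr9:57998024-58027031), away from both ends. In this window, 1 position 21 bases before that start had a dispersion of 0.9895 in old and 0.163 in young cells. In that of the odorant receptor gene Olfr15 (chr16:3838725-3839024), 1 position 121 bases before the start had 0.675 in old and 0.142 in young cells. In that of Nutm2 (chr13:50467057-50467356), positions 228 and 79 bases before the start had 0.529 and 0.203 in old, against 0.0453 and 0.138 in young cells. In each of these 3 windows lies the highest position of its whole tile.
Cyp11a1: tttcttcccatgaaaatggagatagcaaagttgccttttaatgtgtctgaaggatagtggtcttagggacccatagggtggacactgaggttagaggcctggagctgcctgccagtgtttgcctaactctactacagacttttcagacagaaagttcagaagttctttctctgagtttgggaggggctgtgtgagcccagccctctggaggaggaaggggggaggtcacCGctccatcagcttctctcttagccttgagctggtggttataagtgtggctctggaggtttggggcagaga
Olfr15: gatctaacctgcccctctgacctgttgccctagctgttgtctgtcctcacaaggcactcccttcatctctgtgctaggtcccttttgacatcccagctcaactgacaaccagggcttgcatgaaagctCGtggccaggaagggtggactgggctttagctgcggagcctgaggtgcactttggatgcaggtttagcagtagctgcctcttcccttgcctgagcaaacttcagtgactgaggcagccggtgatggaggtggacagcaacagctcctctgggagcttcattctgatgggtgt
Nutm2: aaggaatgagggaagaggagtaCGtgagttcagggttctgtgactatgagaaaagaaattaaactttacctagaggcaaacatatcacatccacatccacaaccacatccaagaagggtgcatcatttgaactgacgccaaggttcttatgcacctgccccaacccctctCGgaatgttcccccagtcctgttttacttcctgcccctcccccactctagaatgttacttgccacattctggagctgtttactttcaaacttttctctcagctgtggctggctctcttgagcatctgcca
Lamp1: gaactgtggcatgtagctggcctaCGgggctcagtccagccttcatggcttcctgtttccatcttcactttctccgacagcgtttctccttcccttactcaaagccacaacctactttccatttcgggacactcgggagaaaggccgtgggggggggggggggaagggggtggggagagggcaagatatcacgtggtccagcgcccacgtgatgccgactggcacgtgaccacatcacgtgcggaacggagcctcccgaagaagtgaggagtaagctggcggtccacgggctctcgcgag
Lamp1 codes for a glycoprotein of the lysosome membrane, and its window (chr8:13158911-13159210) is the CpG-rich exception among the 4. The window was nearly unmethylated, at 2.82% in old and 2.78% in young cells, while the tile it reaches into, chr8:13158001-13159000, stood at 60.1% in old and 60.3% in young cells. The 1 high position of that window lay 225 bases before the start, at its far edge, with a dispersion of 0.253 in old and 0.0512 in young cells. The other 5 high positions of that tile, the highest at 0.9895 in old cells, lie outside the window. Of the 693 old-only tiles on chromosomes that the promoter table covers, 10 overlapped a promoter window (1.44%), against 2.52% of all tiles there. The tile's highest position lay inside the window in the 3 cases printed first. None of the old-only tiles overlapped an annotated miRNA hairpin.

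Old-only tiles outnumbered young-only tiles 2.96 to 1, and did so on 19 of 19 chromosomes. Their density ran from 4.11 per 10000 tiles on chromosome 16 to 8.32 per 10000 on chromosome 18. High dispersion was more frequent in old cells as a whole: 8554 tiles reached 0.1 in old and 6225 in young cells, and 3.06% of positions reached it in old against 2.57% in young cells. With thresholds set at the same percentile within each age (0.103 and 0.0611 in old, 0.0971 and 0.0588 in young cells), the split became 546 old-only to 358 young-only tiles, so that old-only tiles were 60.4% of both kinds instead of 74.8%. The median over all tiles was 0.0458 in old and 0.0458 in young cells. The chromosomes share the same animals and are not replicates, and the excess could not be tested without values per animal.

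**Figure D1:**
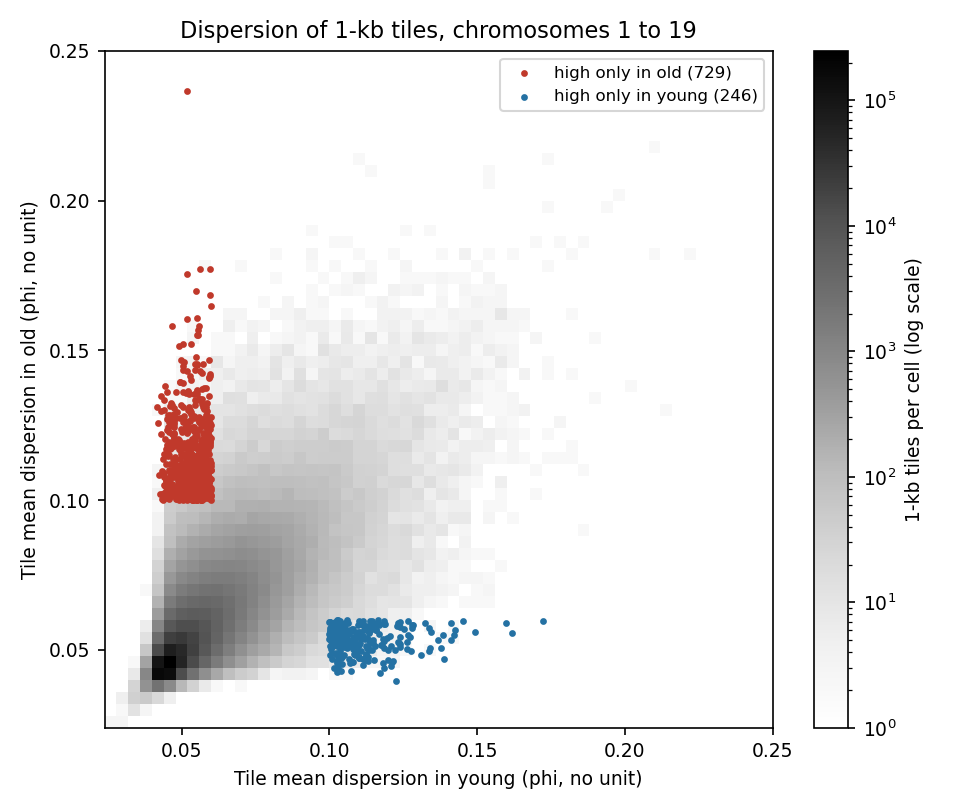
Mean dispersion (phi, no unit) of each 1-kb tile in old (vertical axis) against young cells (horizontal axis), with the number of tiles per cell of the grid in grey on a log scale. The 729 old-only tiles are red, the 246 young-only tiles blue, and 31 tiles lie outside the range shown. Both kinds sit at the edges of 1 continuous cloud.

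The tiles form no separate class in dispersion. Within them phi averaged 0.114 in old and 0.0533 in young cells, with a median of 0.10997 and a highest value of 0.237 in old cells. With young under 0.06, 366 old-only tiles stood between 0.1 and 0.11 in old cells, while 921 tiles stood just below, between 0.09 and 0.1. At the other threshold, 311 old-only tiles had 0.055 to 0.06 in young cells and 383 tiles with 0.06 to 0.065 were left out. The tile nearest to the upper threshold from inside, chr8:121141001-121142000, had 0.10001 in old and 0.0520 in young cells, and the nearest from outside, chr1:160232001-160233000, had 0.09998 in old and 0.0545 in young cells. Of the tiles at 0.1 or more in old cells, 8.52% were old-only, 38.1% were also at 0.1 or more in young cells (3258 tiles), and the other 4567 tiles had young values between the thresholds. Of the tiles at 0.1 or more in young cells, 3.95% were young-only.

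A handful of single positions carried the high mean in most of these tiles. The 729 tiles hold 10855 positions, of which 1838 (16.9%) had a dispersion of 0.1 or more in old and 623 (5.74%) in young cells, 547 of them in both ages. In 206 tiles (28.3%) 1 position alone reached 0.1 in old cells, and in 589 tiles (80.8%) 1 to 3 positions did. The highest position of a tile had a median dispersion of 0.791 in old cells, and the same positions had a median of 0.0910 in young cells. In 186 tiles (25.5%) it stood at 0.9895, the upper end of the deposited scale, which 3682 positions reached in old and 2947 in young cells over the whole table. The highest positions had intermediate levels, with a median of 55.9% in old and 55.7% in young cells.

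Without its highest position a tile rarely stayed high. The mean of the remaining positions was 0.1 or more in 22 of 729 old-only tiles (3.02%), was under 0.06 in 340 (46.6%), and had a median of 0.0621. Young-only tiles were built alike, with 4 of 246 (1.63%) still at 0.1 or more in young cells, 153 (62.2%) under 0.06 and a median of 0.0551. The other cytosine of the same CpG, on the opposite strand, mostly did not share the high value. It was listed for 589 of the highest positions, reached 0.1 in old cells at 64 of them (10.9%) and had a median of 0.0434, the most common value of the old column, although the levels of both cytosines were equal in each age, to all 4 deposited decimals, at 569 of these 589 CpGs.

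**Figure D2:**
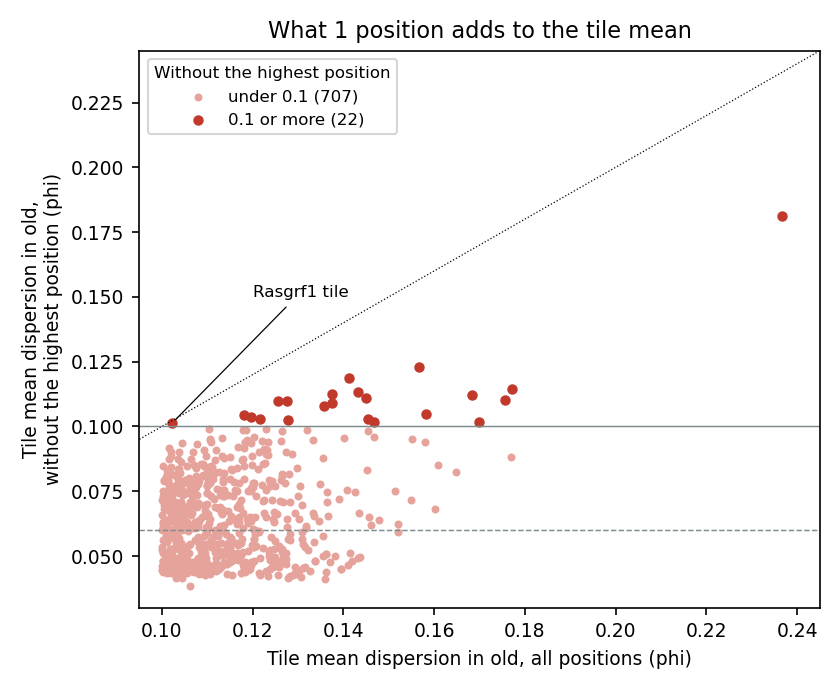
Mean dispersion in old cells of each of the 729 old-only tiles over all positions (horizontal axis) and without its highest position (vertical axis); the dotted line marks equality, the solid and dashed lines 0.1 and 0.06. The 22 tiles at 0.1 or more without that position are dark red, and the tile ahead of Rasgrf1 lies almost on the line of equality.

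Old-only tiles were mostly of intermediate methylation. Their level averaged 58.9% in old and 58.2% in young cells (SD over tiles 14.9 and 14.0), against 69.1% and 68.6% over all tiles. A level of 40% to 80% over both ages was found in 613 old-only tiles (84.1%) and in 58.9% of all tiles, a level of 80% or more in 26 (3.57%) against 32.1%, and one under 20% in 6 (0.823%) against 3.86%. Per 10000 tiles of a level, old-only tiles were most frequent at 40% to 50%, with 17.0, had 0.746 at 80% to 90%, and had 0 among 25643 tiles under 10%. Tiles high in both ages showed a similar profile around a higher count, with 101 per 10000 at 40% to 50% and 2.71 at 80% to 90%. Of these 6 least methylated old-only tiles, 5 had Cpn2, Kdm4b, Mpp7, Pcsk5 and Sh3glb1 as their gene or nearest gene, with levels of 12.8% to 20.7% in old and 14.8% to 17.99% in young cells.

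The tiles also held few measured positions, and the cytosines of a CpG on both strands count as separate positions. Sequence without a listed position was not counted, so this is not the CpG content of the sequence. They held a median of 14 positions, against 18 for all tiles, for tiles high in both ages 18 and for young-only tiles 13, and 446 of them (61.2%) held 10 to 14 positions, against 33.6% of all tiles. Their frequency declined with density, at 11.0 per 10000 tiles with 10 to 14 positions, 6.96 with 15 to 19, 2.73 with 20 to 29 and 1.04 with 30 to 39. Tiles high in both ages did not follow this decline, with 26.9 to 29.4 per 10000 in every density bin up to 59 positions. At 60 or more positions they had 10.4 per 10000. By construction, 1 high position moves a mean over few positions more than a mean over many.

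**Figure D3:**
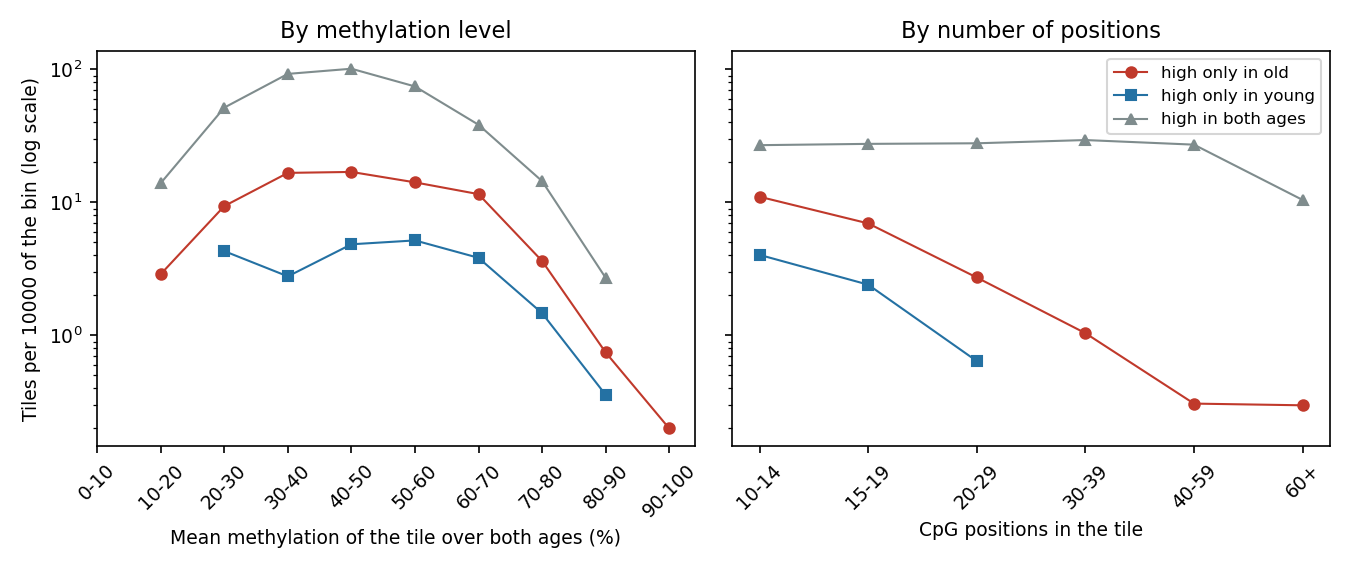
Tiles per 10000 of their bin (log scale) by mean methylation over both ages in percent (left) and by number of CpG positions (right), for old-only (red), young-only (blue) and tiles high in both ages (grey); bins with 0 tiles are not drawn. Old-only tiles peak at 17.0 per 10000 at 40% to 50% methylation and fall off with density. Tiles high in both ages do so only in the last bin, of 60 or more positions.

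Old-only tiles lay across genes and the sequence between them, in shares that were not tested. Inside protein-coding genes lay 351 (48.1%), against 51.2% of all tiles, and 34 (4.66%) were within 1 kb of an end of such a gene, against 6.76%. Outside genes and more than 100 kb from any end lay 121 (16.6%), against 16.2%. None was adjacent to another: the closest pair was 5 tiles apart and 3 pairs were within 10 kb. Windows of 1 Mb held at most 4, at chr1:180000001-181000000 and chr2:31000001-32000000, and 605 of 2413 windows held at least 1. The neighbouring tiles were ordinary in dispersion: the 992 flanking tiles with at least 10 positions averaged 0.0511 in old and 0.0499 in young cells, and 7 of them reached 0.1 in old and 6 in young cells. On chromosome X, outside the set, the same rule gave 10 old-only and 2 young-only of 30185 tiles.

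The level differed little between the ages in most of these tiles. It was higher in old cells by 0.716 percentage points on average (SD over tiles 5.38), against 0.495 points over all tiles. It was higher in 399 tiles (54.7%) and lower in 330, while 56.1% of all tiles were higher in old cells. The mean difference was positive on 14 of 19 chromosomes, with an SD over chromosomes of 0.971 points. Over all tiles every chromosome had a positive value, and chromosome 19 had the smallest (0.430). The numbers of tiles and chromosomes therefore show no lean beyond that of all tiles. Differences of at least 10 points occurred in 51 old-only tiles (6.996%; 33 higher, 18 lower in old), in 5.69% of young-only tiles, in 0.890% of tiles high in both ages and in 2.03% of all tiles. These shares were not tested, and old-only tiles hold fewer positions than all tiles or tiles high in both ages, which was not adjusted for.

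The tile with the most positions and the largest level difference among the 729 was also unlike the others in how its dispersion was built. It lies at chr9:89879001-89880000, 29.5 kb ahead of Rasgrf1 (chr9:89909508-90026979), a gene for an activator of Ras that is expressed from the paternal allele and has a region ahead of it that is methylated on that allele. Over 66 positions the level was 68.3% in old and 45.7% in young cells, and the dispersion averaged 0.102 in old and 0.0439 in young cells. In old cells 37 positions reached 0.1, the most in any old-only tile ahead of 9 in the next, and in young cells 0 did. They stood within 232 bp, at chr9:89879674-89879905, and the highest was 0.164, so that the tile stayed at 0.101 without it. Dispersion was higher in old at 58 of 66 positions, with a range of 0.0397 to 0.164 in old and 0.0244 to 0.0925 in young cells.

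Both cytosines of the CpGs took part in that tile, but not equally. The first cytosines averaged 0.0934 in old and 0.0544 in young cells, and 13 of 32 reached 0.1 in old. The second cytosines averaged 0.1145 in old and 0.0333 in young cells, and 24 of 32 reached 0.1 in old. In the next tile the first cytosines stood at 0.0434 in old cells at all 16 CpGs, whereas the second averaged 0.0852 in old and 0.0330 in young cells. Away from the gene, the tile from 89878001 stood at 60.8% in old and 45.4% in young cells, with a mean dispersion of 0.0494 in old and 0.0468 in young cells. Toward the gene, the tile from 89880001 stood at 58.7% in old and 46.0% in young cells, with a dispersion of 0.0701 in old and 0.0387 in young cells and 5 high positions in old against 0 in young cells. The tile after it, from 89881001, stood at 58.5% in old and 48.6% in young cells, with 0.0651 in old and 0.0392 in young cells and 6 high positions in old against 0 in young cells. The gap in dispersion thus continued on the side of the gene and was small on the other. By the authors' deposited table, 62 of the 66 positions had a p under 0.01, the smallest being 0.00139, and the lowest FDR was 0.296, so 0 passed 0.05. Levels are smoothed, so neighbouring positions are not separate observations.

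**Figure D4:**
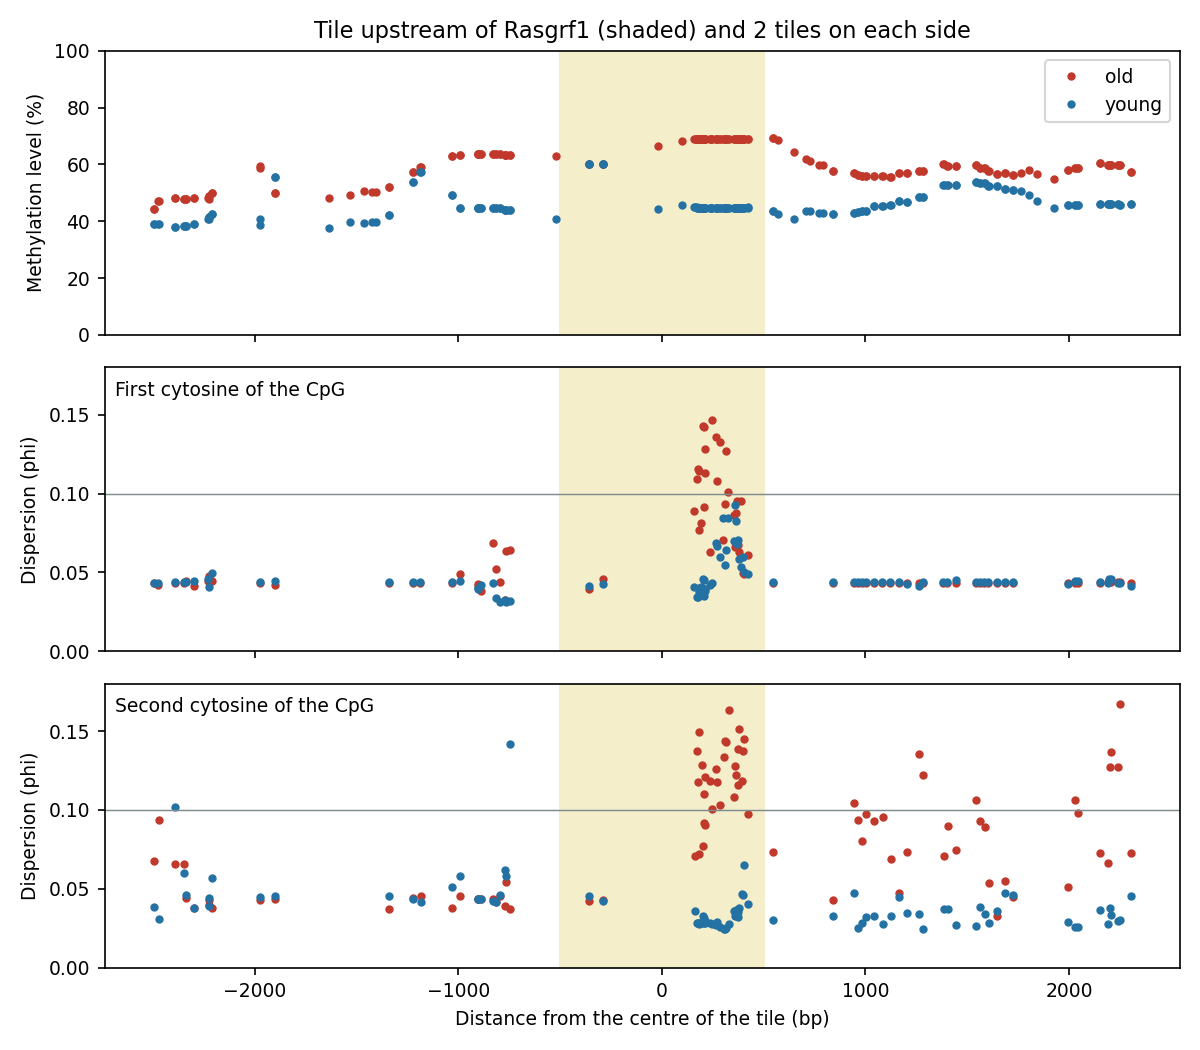
Methylation level in percent (top) and dispersion at the first (middle) and second (bottom) cytosine of each CpG in old (red) and young cells (blue), by distance in bp from the centre of the tile ahead of Rasgrf1 (shaded) over 5 tiles; the line marks a dispersion of 0.1. Within the shaded tile the level is 68.3% in old and 45.7% in young cells and the high values in old cells stand in 1 block of 232 bp.

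The 22 tiles that stayed at 0.1 or more in old cells without their highest position, a set picked after their values were seen, include tiles inside Ttn, Srebf1 and Calhm1. In Ttn, the gene of the sarcomere spring titin, the tile chr2:76927001-76928000 had a mean dispersion of 0.145 in old and 0.0505 in young cells over 26 positions, at levels of 64.6% in old and 67.7% in young cells. Its high values came from 3 positions within 15 bp, at 0.758, 0.891 and 0.9895 in old, against 0.0839, 0.0690 and 0.0690 in young cells, and from 1 at 0.104 in old and 0.0661 in young cells. In Srebf1, a transcription factor gene of lipid synthesis, 7 of 32 positions were high in old cells, between 0.145 and 0.908, and 3 in young cells; the tile averaged 0.137 in old and 0.0584 in young cells, at 43.5% in old and 45.1% in young cells. In Calhm1, which codes for a calcium homeostasis modulator channel, 7 of 19 positions were high in old cells, between 0.106 and 0.549, and 1 in young cells, at levels of 76.5% in old and 79.2% in young cells. These tiles thus held several high positions, but the age difference in level was small in all 3, at -3.11, -1.62 and -2.65 points.

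**Figure D5:**
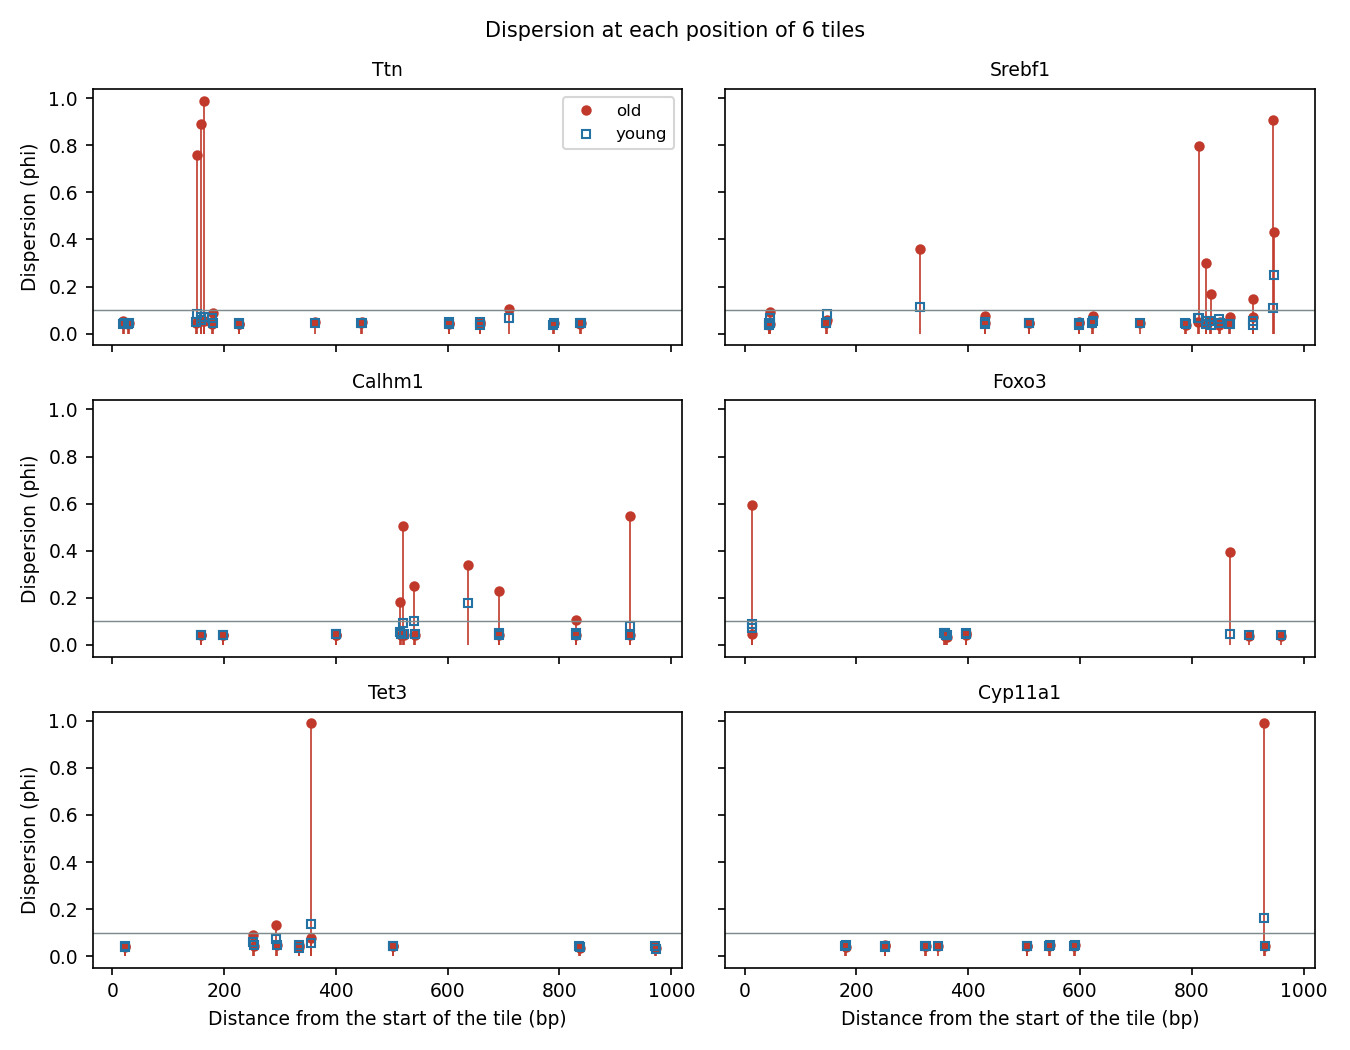
Dispersion at every position of 6 old-only tiles in old (red, with stems) and young cells (blue squares), by distance in bp from the start of the tile; the line marks 0.1. The Ttn, Srebf1 and Calhm1 tiles hold 4, 7 and 7 high positions in old cells, the Foxo3 and Tet3 tiles 2 each, and the Cyp11a1 tile 1.

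The tile with the widest gap in dispersion lay 83.8 kb from Mrps6, a mitochondrial ribosomal protein gene, at chr16:92196001-92197000. Its 13 positions averaged 0.237 in old and 0.0518 in young cells, and 4 of them reached 0.1 in old, at 0.391, 0.608, 0.750 and 0.8999, whereas 1 did in young cells. It stayed at 0.181 without the highest, at levels of 60.8% in old and 64.8% in young cells. The next gap was found 24.8 kb from Tpra1 (0.176 in old, 0.0520 in young). Others followed 113 kb from Gnao1, a neuronal G protein subunit (0.177 in old, 0.0563 in young), and 63.0 kb from Oxtr, the oxytocin receptor (0.177 in old, 0.0596 in young). Tiles with Sall3 (599 kb away), Cd9 (26.3 kb), Slc45a4 (1.24 kb) and Sptlc3 (478 kb) as nearest gene and in Dlgap1 and 4931414P19Rik complete the 10 widest gaps. They had 0.158 to 0.170 in old and 0.0468 to 0.0599 in young cells. All 10 rest on 2 to 4 high positions in old cells, against 0 to 2 in young cells.

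After the tile ahead of Rasgrf1, the largest difference in level was in Dlgap1, a scaffold of the postsynaptic density (65.1% in old, 46.6% in young). In the tile 51.7 kb from Dpt, a dermal matrix protein gene, the level was 81.3% in old and 65.7% in young cells. In the complement gene C7 it was 53.7% in old and 38.3% in young cells. The lowest values relative to young were in the homeobox gene Pknox2 (36.7% in old, 52.5% in young) and in Rora, which codes for a circadian nuclear receptor (49.1% in old, 63.6% in young). Tiles 79.2 kb from Emc2, 92.7 kb from Ephb3 and 9.57 kb from Otog follow. They stood at 45.3%, 31.3% and 57.2% in old, against 59.5%, 45.3% and 69.2% in young cells. In Pknox2, Rora, C7 and near Dpt, Emc2 and Ephb3 a single position was high in old cells, with 0.619 to 0.9895. The mean in old cells without it was 0.0433 to 0.0482. In young cells 2 positions were high near Ephb3, 1 each in Rora and near Dpt, and 0 in Pknox2, in C7 and near Emc2.

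Members with many measured positions were few. Besides the tile ahead of Rasgrf1, the most positions were found in Vgll4, a cofactor of TEAD factors (45), and in the Rac activator gene Tiam1 (43). Tiles in Pdzrn3 (38) and 136 kb from Plcl1 (35) follow. In the Vgll4 tile 6 positions were high in old and 4 in young cells, at a level of 40.1% in old and 29.6% in young cells. In the Tiam1 tile 9 were high in old and 5 in young cells, at 63.1% in old and 59.2% in young cells.

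Genes that hold an old-only tile numbered 329 of the 19427 protein-coding genes with a measured tile (1.69%), and 103 (0.530%) hold a young-only tile. Of the 329, 304 hold 1 tile, and 11 also hold a young-only tile. They are long genes, with a median of 141 kb against 19.2 kb over all measured genes, and a longer gene holds more tiles. The most old-only tiles in a gene were 3, in Pcsk5, a proprotein convertase (213 measured tiles), in Dlgap1 (491) and in the acid-sensing channel gene Asic2 (735). Genes with 2 include Gng4, Rxfp1, Nup214, Dnah7a, Fnbp1 and Pknox2, with 35 to 194 measured tiles. In the Pcsk5 tiles the level was 67.9%, 16.2% and 51.2% in old, against 68.3%, 17.99% and 59.2% in young cells.

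Of 39 muscle stem cell genes 1 held an old-only tile, Foxo3, a transcription factor that maintains quiescence (2.56%, against 1.69% of all measured genes), and 2 held a young-only tile. The Foxo3 tile, chr10:42231001-42232000, had a dispersion of 0.124 in old and 0.0514 in young cells from 2 positions, at 0.595 and 0.395 in old, against 0.0871 and 0.0464 in young cells. Its level was 39.1% in old and 41.1% in young cells. The Notch targets Hes1, Hey1 and Heyl, the myogenic factors Myf5, Myod1 and Myog, and also Pax7, Spry1, Vcam1, Dnmt3a and Cdkn2a held 0. The highest tile of Pax7, the identity factor of these cells, had 0.105 in old but 0.0653 in young cells and so fell outside. That of the methyltransferase gene Dnmt3a had 0.159 in old and 0.122 in young cells and was high in both.

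Among 16 genes of the DNA methylation machinery 2 held a tile each, or 32.7 per 10000 measured tiles, against 5.71 over all protein-coding genes. In Tet3, which oxidises methylated cytosine (chr6:83424001-83425000), the level was 55.4% in old and 63.6% in young cells, and the dispersion was 0.112 in old and 0.0520 in young cells, with 1 position at 0.9895 in old. In Mbd2, a reader of methylated CpG on chromosome 18, the level was 29.9% in old and 41.8% in young cells, and the dispersion 0.131 in old and 0.0575 in young cells, with 4 positions high in old. Of 13 fibro-adipogenic and tendon genes, Col1a2 (0.126 in old, 0.0592 in young) and Acta2 (0.1149 in old, 0.0557 in young) held 1 each, or 46.3 per 10000 measured tiles. Of 42 collagen genes Col1a2, Col23a1 and Col14a1 held 1 each, and of 68 factors of other lineages Prdm16 did. Of 383 Zfp genes 6 did, and of 615 olfactory receptor genes Olfr15 did.

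Of 41 very long neuronal adhesion and receptor genes 11 held 15 old-only tiles, or 9.14 per 10000 measured tiles, against 5.71 over all protein-coding genes. Of the 41, 5 held 5 young-only tiles among 16414 measured tiles, against 104 among 614847 over all protein-coding genes. Asic2 held 3 old-only tiles and Tenm2, a synaptic adhesion gene, held 2. The 3 Asic2 tiles had a dispersion of 0.103 to 0.117 in old and 0.0448 to 0.0552 in young cells, each from 3 positions. No old-only tile was found in the spans of 41 imprinted genes, 16 endothelial, 17 blood cell, 39 Hox, 57 clustered protocadherin, 144 vomeronasal receptor, 76 histone or 35 MHC genes. The tile ahead of Rasgrf1 lies outside that gene's span. Against the 1.69% of all measured genes that hold a tile, nothing is read from these counts.

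The positions that the authors' own test called in these tiles were not those of high dispersion. By the authors' deposited table, 23 of the 10855 positions (0.212%) had an FDR under 0.05, against 0.0837% of all positions in tiles with at least 10. They lay in 22 tiles (3.02%, against 1.62% of all tiles), 11 higher and 12 lower in old cells. Young-only tiles had like shares, with 0.206% of positions and 2.85% of tiles called in the authors' deposited table. Of these 23 positions 0 had a dispersion of 0.1 or more in old cells. At 22 of them stood the most common single value of a column, 0.0434 in old (17.2% of positions) or 0.0438 in young cells (18.9%). The same counts over all 22858 positions under that FDR are not given here. Neither count is therefore shown to be particular to these tiles. A p under 0.05 in the authors' deposited table was found at 441 positions (4.06%, against 1.62% of all), and at least 1 such position in 179 tiles (24.6%, against 17.3% of all and 26.8% of young-only tiles). Among the high positions 66 of 1838 had one (3.59%), and among the other positions 375 did (4.16%). Without the tile ahead of Rasgrf1, 29 of 1801 high positions (1.61%) and 350 of 8988 others (3.89%) did. The median p in the authors' deposited table was 0.606 at the high and 0.581 at the other positions. The level and the p-value come from the same libraries as the rule, so these shares are a description.

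A p under 0.05 at 50% or more of the positions was found in the authors' deposited table in 6 of the 729 tiles (0.823%, against 0.406% of all tiles). They include the tile ahead of Rasgrf1 and tiles in Apol10a and Cpd and near Ephb3 and Gm4791. In Apol10a the level was 77.9% in old and 66.8% in young cells, and in Cpd, a carboxypeptidase gene, 44.99% in old and 30.4% in young cells. In the tile 144 kb from Gm4791 it was 78.3% in old and 63.7% in young cells. Apart from the tile ahead of Rasgrf1, these tiles had 1 or 2 high positions in old and 0 to 2 in young cells.

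The young-only tiles served as the counterpart. The widest gaps were in Clstn2 (0.0596 in old, 0.172 in young), near Gna12 (0.0556 in old, 0.162 in young) and in Gfra1, a receptor for glial-derived neurotrophic factors (0.0589 in old, 0.160 in young). A tile 96.7 kb from Phyhipl had the most high positions of any young-only tile, 9 in young against 1 in old cells. A tile 336 kb from Rgma had 1 in young and 0 in old cells. The level of young-only tiles averaged 60.2% in old and 60.8% in young cells, a difference of -0.609 points.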

How the data were processed

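The methylation levels are, per the file headers, mu of either age, a fraction deposited by the authors as 1 value per group; runs of equal values show that it was smoothed. The dispersion (phi) is a score deposited by the authors, defined in none of the sources used here. The p-value and FDR per position are the authors' deposited test of old against young. The submitters' processing notes name Bismark, edgeR and Trim Galore and the build mm10/GRCm38; roles and versions were not given in these sources.

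Positions were grouped in 1000-bp tiles, and level and dispersion were averaged with equal weight, in Python 3.11.15 with numpy 2.4.6 and pandas 2.3.3. Deposited positions count from 0: both cytosines of 94.1% of 349578 promoter CpGs matched with that offset and 9.89% without it, and 1 was added for the coordinates printed. Genes and promoters come from RefSeq tables of GRCm38.p6, the promoter table without chromosome 18. A tile said to be near a gene has it as the nearest protein-coding gene, at any distance, and no link to that gene was tested. The tile procedure was tested on simulated data. Tiles, genes, gene lists and comparisons were chosen with earlier results of these data known. Tiles named are those with the 10 widest gaps, the 5 highest and 5 lowest level differences, the most positions, and list members; tiles named as staying high without a position, or by p-values, were chosen after their values were seen. Values of some genes that this rule names are left out. With 1 value per age, no test between ages, leave-one-out or interval was possible, and no other column was used.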

Additional observations from a re-analysis of the deposited data

How the results depend on the processing

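Old-only tiles outnumbered young-only tiles in 12 of 12 alternatives, by 1.53 to 5.88 times. Their level was higher in old cells in 12 of 12, by 0.320 to 1.77 points. Over all tiles with at least 10 positions it was higher in old cells by 0.495 points. The difference was below that with thresholds of 0.12 and 0.05 (0.320) or a high threshold of 0.08 (0.478). With both cytosines averaged it was 0.412. For that alternative, and others that changed the eligible tiles or positions, the difference over all tiles was not computed. Counts of old-only and young-only tiles, and the share of positions under an FDR of 0.05 in the authors' deposited table, moved with the rule. Over all positions of tiles with at least 10 that share was 0.0837%, which serves the alternatives with other thresholds or the median. Where the eligible tiles or positions changed, the share over all of them was not computed, so nothing is read from those shares. The counts and shares follow in that order. They were 1347, 503 and 0.359% with at least 6 positions, and 101, 20 and 0% with at least 20. With the median of phi in place of the mean they were 15, 3 and 0%, with a level difference of 1.77 points. With thresholds of 0.12 and 0.05 they were 47, 8 and 0.541%, and with a high threshold of 0.08 they were 4434, 1743 and 0.1101%. With both cytosines of a CpG averaged they were 1382, 501 and 0.397%, with 580 of the 729 tiles among the 1382. This alternative counted CpGs in place of positions, with a lower minimum per tile, and gave each CpG the lower FDR of its cytosines. Its share is therefore one of CpGs, and its values do not show the effect of averaging alone. With the most common dispersion values left out the share was 0.00754%, and 948 old-only and 285 young-only tiles were found, with 312 of the 729 among the 948. Without the highest position of each age, an alternative added after seeing the data, the rule gave 96 old-only and 19 young-only tiles, and 22 of the 96 are among the 729. The causes of these shifts were not tested. Leaving out the most common values or the highest positions removes positions by construction. The most common values were those of 22 of the 23 positions under an FDR of 0.05 in the 729 tiles. No paired analysis was possible because the table holds 1 value per age and none per library; for the same reason no replicate was left out. Depth per position is unknown, so no coverage minimum was set.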

Other observations

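The rule on tile means misses most places where many positions of 1 age were high. Tiles with at least 10 positions at a dispersion of 0.1 or more in old cells and at most 1 per 4 of that number in young cells numbered 19, and the reverse numbered 4. Of the 19, 1 was an old-only tile, the one ahead of Rasgrf1. The same tile was the one of the 19 with a p under 0.05 in the authors' deposited table at any position. Among the 4 reverse tiles 1 had such a position, the one in Sirt2, and 17.3% of all tiles had one. The tile near Tmco1 had 15 high positions in old and 1 in young cells, at a level of 16.5% in old and 11.5% in young cells. The tile 1.94 kb from Cdkn1c, an imprinted cell cycle inhibitor gene, had 12 in old and 3 in young cells, at 62.3% in old and 67.6% in young cells. In Arhgap31 10 positions were high in old and 0 in young cells, at 86.6% in old and 86.1% in young cells. The reverse tiles lay in Sirt2, Sbno2 and Ass1 and near Rab10, with 10 to 15 high positions in young and 0 to 2 in old cells.

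By the median of dispersion over positions, 15 tiles were high in old cells alone, and the tile ahead of Rasgrf1 was the one they shared with the 729. A tile 193 kb from Obi1 had a median of 0.148 in old and 0.0531 in young cells. One 0.211 kb from Sppl3 had 0.127 in old and 0.0498 in young cells. These sets were looked at after seeing the data.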
